A study of Mus musculus with 23 samples.

Results

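The melanocortin system was read in 23 single neurons of the mouse arcuate hypothalamus through 5 genes. These were the peptide precursor genes Pomc and Cartpt, the receptor genes Mc3r and Mc4r, and the receptor accessory gene Mrap2. The genes were chosen by name, with earlier results of these data known. They are 5 of the 23373 genes in the deposited table. Each library was made with SmartSeq2 from 1 neuron that was picked by hand for green fluorescence after papain dissociation. All donors were young adult vGLUT2-IRES-Cre::loxSTOPlox-L10-GFP mice of mixed background, in which Cre made from the VGLUT2 locus, a vesicular glutamate transporter, switches on a GFP-tagged ribosomal protein. A cell that used this gene at any earlier time stays marked, so the label reports the history of the cell as well as its present state. No treatment is given, and the 2 male donors are not tied to cells in the labels. The 23 cells therefore form 1 group with no biological replicates, and every value below is a description without a test. Numbers 1 to 23 follow the order of the cells' records. By the prefix of their titles, cells 1 to 15 form set 1 and cells 16 to 23 form set 2, and the labels leave the prefixes unexplained.

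Pomc encodes pro-opiomelanocortin, which proteases cut into α-MSH and other melanocortins and into the opioid β-endorphin. The melanocortins bind MC3R and MC4R, receptors that couple to the stimulatory G protein and raise cyclic AMP, and AgRP, made by another class of arcuate neuron, opposes them. MC3R is known as a receptor of arcuate neurons, while MC4R acts in satiety mainly in the paraventricular hypothalamus, a target of arcuate axons. Cartpt encodes the CART peptides, which many Pomc neurons of rodents also make, and MRAP2 is a small membrane protein that binds MC4R and other receptors and changes their signalling. The study concerned an excitatory connection from the arcuate to the paraventricular nucleus and its regulation by α-MSH.

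On mm10, Pomc lies at chr12:3954951-3960618 on the plus strand and Cartpt at chr13:99898483-99900683 on the minus strand. Mc3r, a gene of 1 exon, lies at chr2:172248492-172251114 on the plus strand. Mrap2 spans chr9:87144306-87184045 on the plus strand. All 5 genes are protein coding in GENCODE, and no other annotated gene overlaps any of them, so neighbours do not share their reads.

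The promoters of the ligand genes are shown because both genes reached very high levels in the same cells. Each line holds the 250 bases before the RefSeq start (GRCm38.p6), at chr12:3954695-3954944 on the plus strand for Pomc and chr13:99900684-99900933 on the minus strand for Cartpt, with a TATA box (TATAAA) or a cyclic AMP response element (TGACGTCA) in capitals.
Pomc: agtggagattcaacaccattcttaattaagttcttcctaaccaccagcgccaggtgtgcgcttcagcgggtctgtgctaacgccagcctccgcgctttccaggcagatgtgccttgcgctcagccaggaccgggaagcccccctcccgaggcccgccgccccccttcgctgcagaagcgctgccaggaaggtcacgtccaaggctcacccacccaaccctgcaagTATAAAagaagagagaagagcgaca
Cartpt: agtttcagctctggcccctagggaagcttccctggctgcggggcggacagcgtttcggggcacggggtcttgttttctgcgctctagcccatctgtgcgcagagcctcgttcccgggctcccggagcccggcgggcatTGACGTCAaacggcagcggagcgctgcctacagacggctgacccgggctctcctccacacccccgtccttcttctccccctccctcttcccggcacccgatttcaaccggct
The TATAAA of Pomc starts 25 bases before the start site, and 12.4% of 32851 promoters of this length hold these letters on either strand. The TGACGTCA of Cartpt starts 112 bases before the start site, and 1.55% of the promoters hold it. Neither sequence holds the other's motif, and the windows of Mc3r and Mrap2 hold neither. The general E-box CANNTG occurred in all 4 windows examined, against 66.2% of all promoters. TAAT, the core bound by many homeodomain proteins, occurred in that of Pomc alone, against 54.9%. These matches describe letters and do not show that a factor binds there.

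Both ligand genes were present in all 23 cells at or above 1 FPKM (sequenced fragments divided by transcript length and by library size), a level reached in all cells by 7.2% of genes, in at least 12 cells by 27.7% and in at least 1 cell by 63.6%. Pomc ranged from 25.5 FPKM in cell 2 over a median of 259 to 9534 FPKM in cell 12. In set 1 the values of cells 1 to 8 were 96.7, 25.5, 922, 3214, 2378, 4663, 412 and 60.9 FPKM, and those of cells 9 to 15 were 51.3, 177, 1607, 9534, 3815, 259 and 28.1 FPKM. In set 2 the values of cells 16 to 23 were 599, 108, 54.2, 39.0, 25.6, 1664, 1488 and 40.5 FPKM. Cells 4, 5, 6, 11, 12, 13, 21 and 22 stood at or above 1000 FPKM, and no cell fell between the 922 FPKM of cell 3 and the 1488 FPKM of cell 22. At 100 FPKM the line ran through a continuum, with cell 17 at 108 and cell 1 at 96.7 FPKM on either side, and it was reached by 14 of 23 cells (60.9%, exact Clopper-Pearson 95% interval 38.5 to 80.3%). The 4 highest cells held 67.9% of all Pomc signal. Intervals here cover counting error only.

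Cartpt was higher than Pomc in 19 cells and lower in 4. It ranged from 50.3 FPKM in cell 20 over a median of 471 to 32793 FPKM in cell 4, and the 4 highest cells held 83.2% of its signal. In set 1 the values of cells 1 to 8 were 220, 1793, 4233, 32793, 4741, 28433, 317 and 412 FPKM, and those of cells 9 to 15 were 368, 3476, 217, 21807, 15794, 1320 and 152 FPKM. In set 2 the values of cells 16 to 23 were 1220, 204, 554, 54.6, 50.3, 471, 61.7 and 70.4 FPKM. Cells 4 and 13 had no gene above Cartpt, and in cells 6 and 12 it ranked 2. Pomc ranked 5 in cells 12 and 13 and 8 in cell 6. At or above 100 FPKM of Cartpt were 19 cells (82.6%, 61.2 to 95.05%), all 15 cells of set 1 and 4 of 8 in set 2. At or above 1000 FPKM were 10 cells, 9 of them in set 1. The sets nevertheless overlapped for each of the 5 genes, while 0.107% of all genes did not overlap (0.0385% higher in set 1 and 0.0685% higher in set 2).

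**Figure D1:**
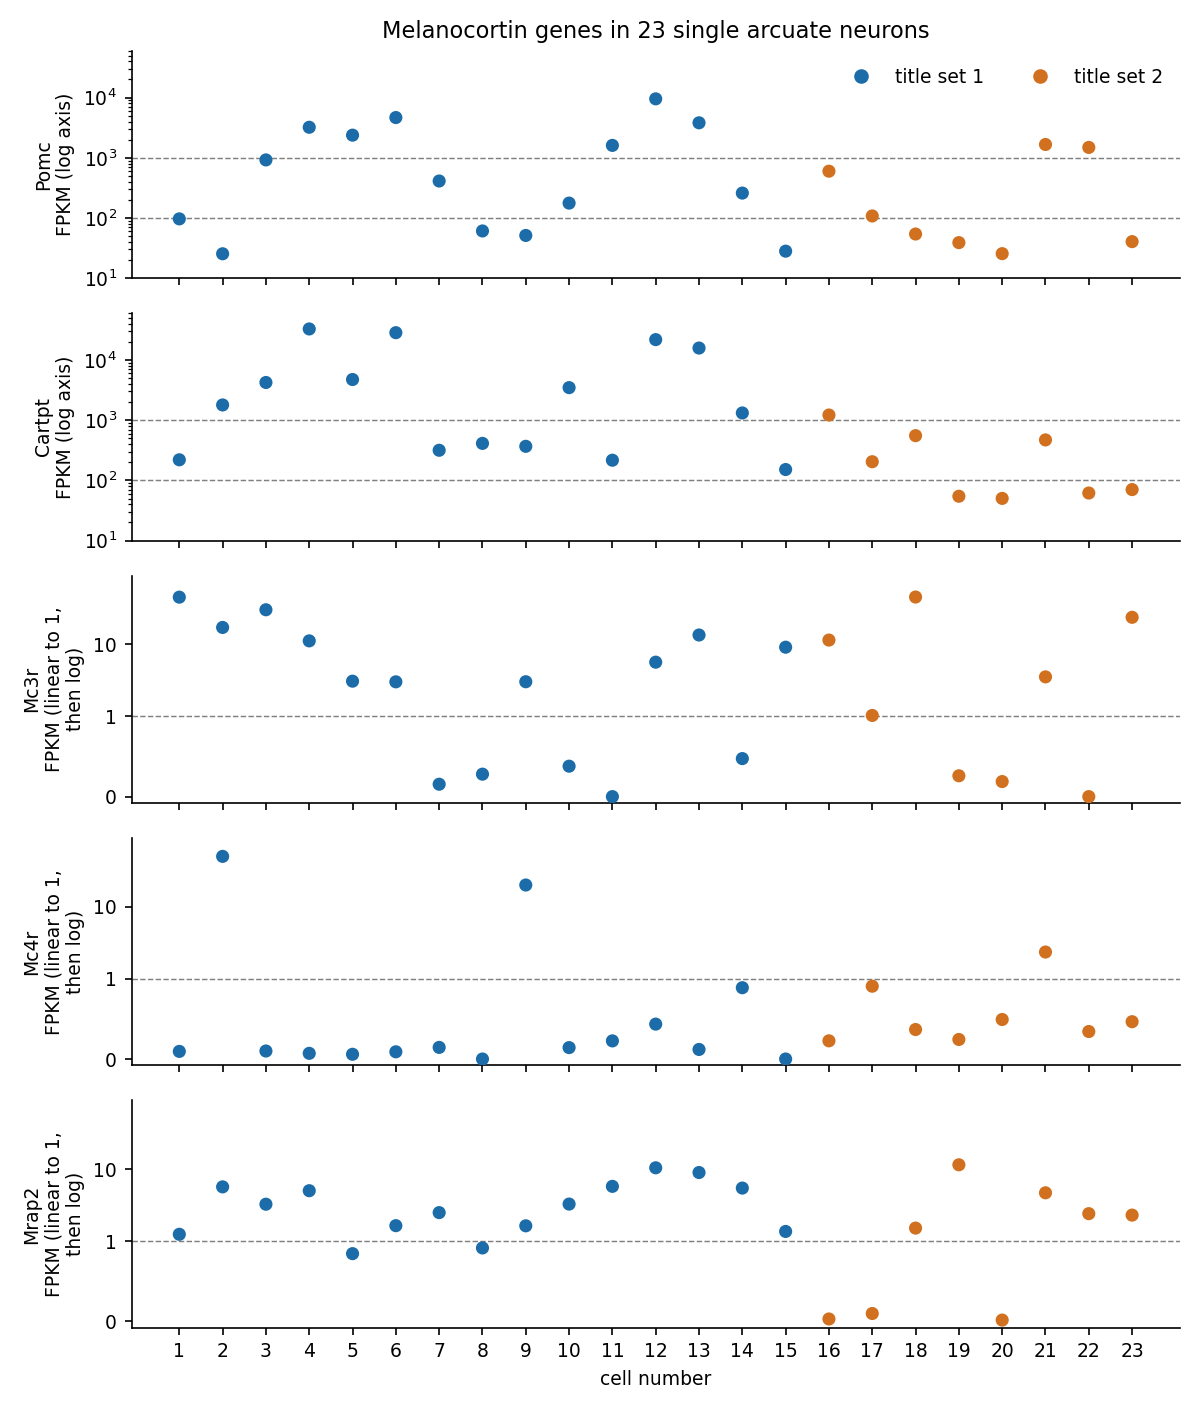
Level of each gene (FPKM; log axis for Pomc and Cartpt, linear to 1 and then logarithmic for the receptors and Mrap2) in each of the 23 cells, with 1 point per cell coloured by title set and dashed lines at 1, 100 or 1000 FPKM. Pomc and Cartpt are above 1 FPKM in every cell, Mc3r in 15, Mc4r in 3 and Mrap2 in 18.

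The low ligand values rested on many reads, yet part of them lay at the level that other restricted transcripts reached in cells of the same set. With a Pomc transcript of 977 bases and 3 exons, the lowest cell by fragments, cell 23, had about 131 of them and cell 12 about 32864. As a yardstick, genes at or above 100 FPKM that were high in only 1 or 2 cells, both of 1 set, were followed into the remaining cells of that set, where their share of the set's summed FPKM had a median between 0.0414 and 0.741% per cell, over 4 to 20 genes. The share of Pomc lay above the 90th percentile of these shares in 10 of 15 cells of set 1 (all but cells 2, 8, 9, 14 and 15) and in 6 of 8 cells of set 2 (all but cells 18 and 20). Cartpt likewise lay above it in 10 of 15 and 6 of 8 cells. By its rule the yardstick leaves out transcripts spread over more than 2 cells. The hormone genes Oxt and Avp, present in every cell of set 2, were left out in this way. A share above the yardstick therefore does not show where the transcripts come from. Whether the lowest values come from the cell's own transcripts or from material shared within a set was not tested.

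Cells with more Pomc mostly had more Cartpt, though not in a fixed ratio. Pearson's r of log2(FPKM + 1) was 0.68 and Spearman's rho 0.65 over 23 cells, which share their title sets, library steps and 2 donors. Within set 1 (n = 15) r was 0.74 and within set 2 (n = 8) 0.43, and r was 0.58 without cells 12 and 6, the farthest from the median of Pomc. Among 9971 other genes ranked by likeness to Pomc after each title set's mean was taken off, Cartpt came 15th with r 0.67. The ratio of Cartpt to Pomc went from 70.4 in cell 2, which had little Pomc and 1793 FPKM of Cartpt, down to cell 22, where Pomc was 24.1 times Cartpt. Pomc also exceeded Cartpt in cells 11, 21 and 7, by 7.42, 3.54 and 1.30 times. Thus 13 of the 14 cells at or above 100 FPKM of Pomc also had 100 FPKM of Cartpt (92.9%, 66.1 to 99.8%), against 6 of the 9 others (66.7%, 29.9 to 92.5%), and the exception was cell 22. At 1000 FPKM for both, 5 of 8 Pomc cells had Cartpt (cells 4, 5, 6, 12 and 13). The same 5 were the cells of set 1 with the most Pomc, while the Pomc-rich cells 11, 21 and 22 had 217, 471 and 61.7 FPKM of Cartpt.

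**Figure D2:**
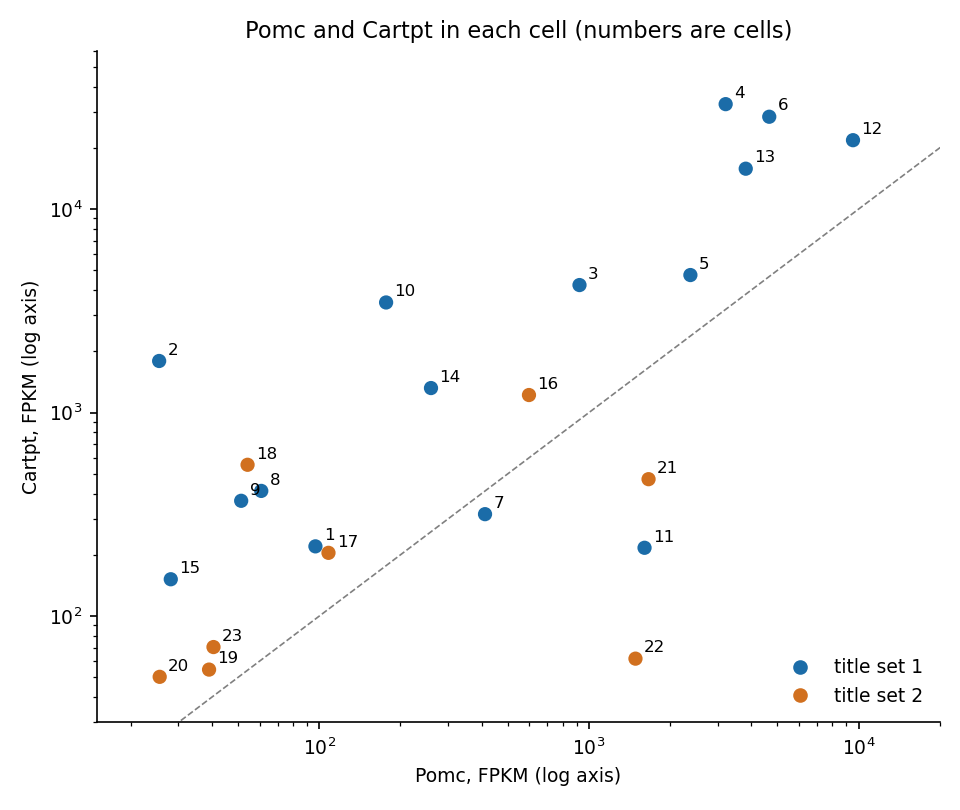
Pomc against Cartpt (FPKM, both axes logarithmic) in each cell, numbered and coloured by title set, with a dashed line where both are equal. Cells 7, 11, 21 and 22 lie below the line, and cells 4, 6, 12 and 13 form the group highest in both genes.

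Mc3r was the common melanocortin receptor. It reached 1 FPKM in 15 of 23 cells (65.2%, 42.7 to 83.6%), in 10 of 15 of set 1 and 5 of 8 of set 2, and was listed at 0 in cells 11 and 22. In set 1 the values of cells 1 to 8 were 45.2, 17.2, 30.2, 11.2, 3.09, 3.02, 0.155 and 0.280 FPKM, and those of cells 9 to 15 were 3.03, 0.380, 0, 5.67, 13.5, 0.475 and 9.14 FPKM. In set 2 the values of cells 16 to 23 were 11.5, 1.03, 45.3, 0.260, 0.188, 3.54, 0 and 23.7 FPKM. Cells 18 and 1 were highest and nearly equal, and 8 cells stood at or above 10 FPKM. Next to the threshold lay cell 17 at 1.03 and cell 14 at 0.475 FPKM, with no cell between them.

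Mc4r, a gene of 1 exon at chr18:66857705-66860487 on the minus strand, was high in very few cells. Cell 2 had 50.001 FPKM, cell 9 had 20.04 and cell 21 had 2.36, and no other cell exceeded 0.909 FPKM. Cells 17 and 14 came next with 0.909 and 0.890 FPKM, and cells 8 and 15 were listed at 0. For cells 1, 3, 4, 5, 6 and 7 of set 1 the values were 0.0951, 0.1001, 0.0709, 0.0591, 0.09 and 0.145 FPKM, and for cells 10 to 13 they were 0.142, 0.226, 0.436 and 0.119 FPKM. For cells 16, 18, 19, 20, 22 and 23 of set 2 they were 0.227, 0.368, 0.244, 0.493, 0.343 and 0.466 FPKM. At 1 FPKM the count was 3 of 23 cells (13.0%, 2.78 to 33.6%), and cells 2 and 9 alone held most of the signal, the 4 highest cells together 94.2%.

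Because Mc3r and Mc4r hold no introns, their values could be turned back into fragments. The low FPKM values of 378 genes without introns fell on steps worth 1 fragment when 200 bases were taken off the gene length, with 556 of 589 low values (94.4%) within 0.1 of a whole number. This placed the libraries between the 2.59 M fragments of cell 14 and the 11.0 M of cell 20 (M, 1000000), and gave whole numbers for 19 of 19 Mc4r values and 12 of 12 Mc3r values under 100 fragments. The 2 high Mc4r cells held 863 and 338 fragments, cell 21 held 22, cell 17 had 15 and cell 20 had 14, and 10 cells had at most 2. Set 2, with no cell above 22 fragments, had between 3 and 22 in each of its 8 cells, while the 13 cells of set 1 other than 2 and 9 had between 0 and 6. With at least 3 fragments as the rule, 13 cells counted for Mc4r and 20 for Mc3r. For Mc3r the highest counts were 924 in cell 18 and 881 in cell 1, cell 17 at the threshold had 16, and the 8 cells under 1 FPKM had between 0 and 5. A level below 1 FPKM thus stood for between 0 and 15 fragments of either gene, so such a cell is not shown to lack the receptor.

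**Figure D3:**
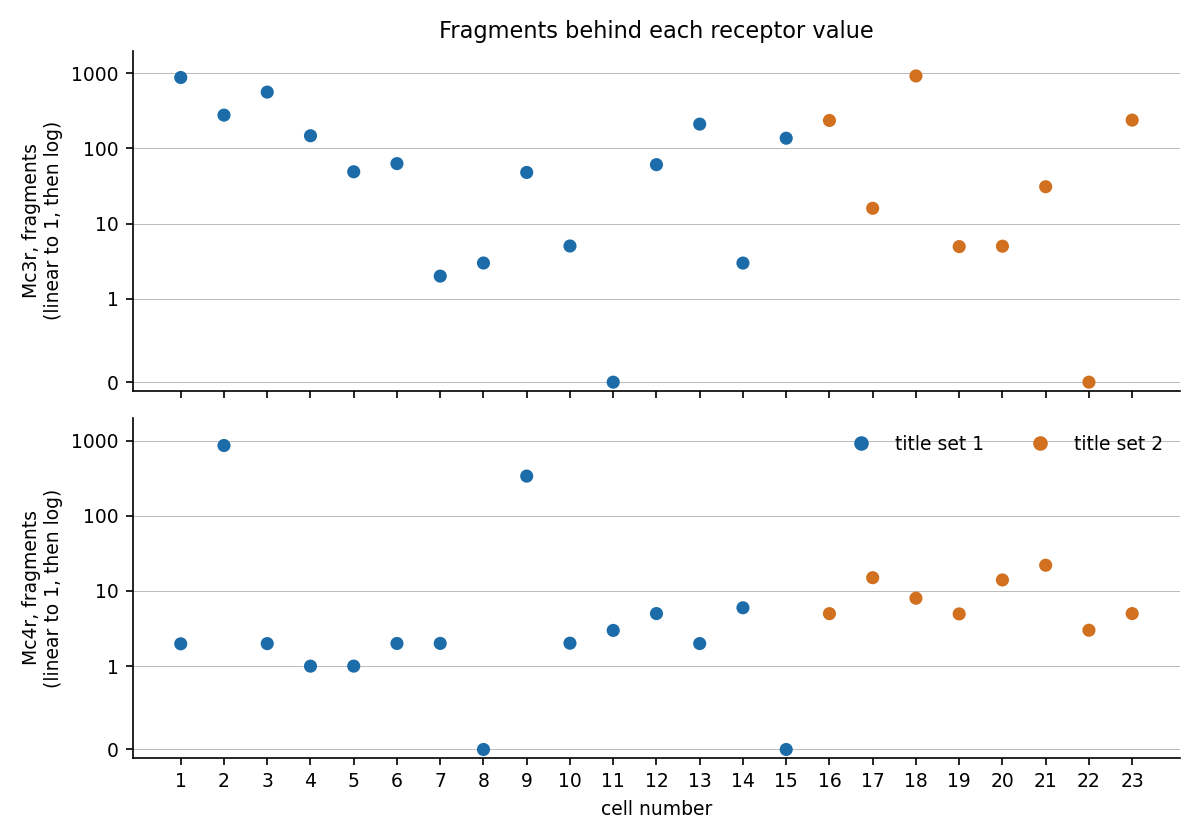
Fragments behind each Mc3r and Mc4r value (axis linear to 1 and logarithmic above) in each cell, 1 point per cell coloured by title set. Mc4r has 863 and 338 fragments in cells 2 and 9 and at most 22 in every other cell, whereas Mc3r spreads from 0 to 924.

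Mrap2 was low to moderate, with a median of 2.42 FPKM, and reached 1 FPKM in 18 of 23 cells (78.3%, 56.3 to 92.5%). Its 4 highest cells held 45.5% of the signal, the smallest such share of the 5 genes over all cells, but 92.6% of that in set 2. In set 1 the values of cells 1 to 8 were 1.25, 5.69, 3.27, 5.03, 0.846, 1.65, 2.5 and 0.917 FPKM, and those of cells 9 to 15 were 1.64, 3.28, 5.78, 10.5, 8.99, 5.47 and 1.37 FPKM. In set 2 the values of cells 16 to 23 were 0.0305, 0.0989, 1.52, 11.5, 0.0169, 4.70, 2.42 and 2.31 FPKM. Every cell of set 1 had at least 0.846 FPKM, while in set 2 cells 16, 17 and 20 fell below 0.1 FPKM and cell 19 was the highest of all. By median level per length over all 23 cells, the order was Cartpt, Pomc, Mc3r, Mrap2 and Mc4r, whereas in set 1 the median of Mrap2 (3.27 FPKM) lay above that of Mc3r (3.09 FPKM). The ranges of neighbours in that order overlapped over the cells.

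Ligand and receptor were found in the same neurons. Of the 14 cells with at least 100 FPKM of Pomc, 9 had 1 FPKM of Mc3r (64.3%, 35.1 to 87.2%), and of the 9 other cells 6 did (66.7%, 29.9 to 92.5%). With Pomc at 1000 FPKM the counts were 6 of 8 and 9 of 15. Over the 23 cells r of their levels was -0.04, and the highest Mc3r cells 18 and 1 had 54.2 and 96.7 FPKM of Pomc. Cartpt and Mc3r were both above their lines in 14 cells, with r at 0.29.

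Mc4r and Pomc met in 1 cell. Cell 21 had 1664 FPKM of Pomc and 2.36 FPKM of Mc4r, whereas the 2 cells rich in Mc4r, 2 and 9, had 25.5 and 51.3 FPKM of Pomc, the first of these the lowest Pomc value of all cells. Cells 2, 9 and 21 all had Mc3r as well (17.2, 3.03 and 3.54 FPKM) and Mrap2 (5.69, 1.64 and 4.70 FPKM), and all 3 were above 100 FPKM of Cartpt. With 3 such cells, the exact interval of the share with Mc3r still reaches from 29.2 to 100%. Cell 21 also carried the most Oxt and Avp, hormone genes of magnocellular neurons, at 3014 and 5186 FPKM. The lowest values among the 8 cells of set 2 were 322 FPKM for Oxt and 571 FPKM for Avp, against at most 30.8 and 2.01 FPKM in set 1. Set 2 was also the set in which every cell held at least 3 fragments of Mc4r. Whether any of these values include material shared between cells was not tested. By the yardstick above, cell 21 had the highest median of all cells (0.741%), and without cells 12, 14 and 21, the 3 highest, 0 cells shared Pomc and Mc4r.

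Mrap2 was present in most cells with Mc3r and in most cells without it. It reached 1 FPKM in 12 of 15 cells with Mc3r (80%, 51.9 to 95.7%) and in 6 of 8 without (75%, 34.9 to 96.8%), and in 11 of 14 cells with 100 FPKM of Pomc against 7 of 9 others. Over the 23 cells r of Mrap2 was 0.34 with Pomc (0.44 in set 1 and 0.07 in set 2), 0.12 with Mc4r and 0.00 with Mc3r. With Cartpt it was 0.32 over all cells, but 0.45 in set 1 and -0.30 in set 2. Full sets of both ligands, Mc3r and Mrap2 occurred in 6 cells (3, 4, 6, 12, 13 and 21; 26.1%, 10.2 to 48.4%). A receptor of either kind was present in 15 cells and in neither form in 8 (7, 8, 10, 11, 14, 19, 20 and 22), and 5 of those 8 had 100 FPKM of Pomc.

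**Figure D4:**
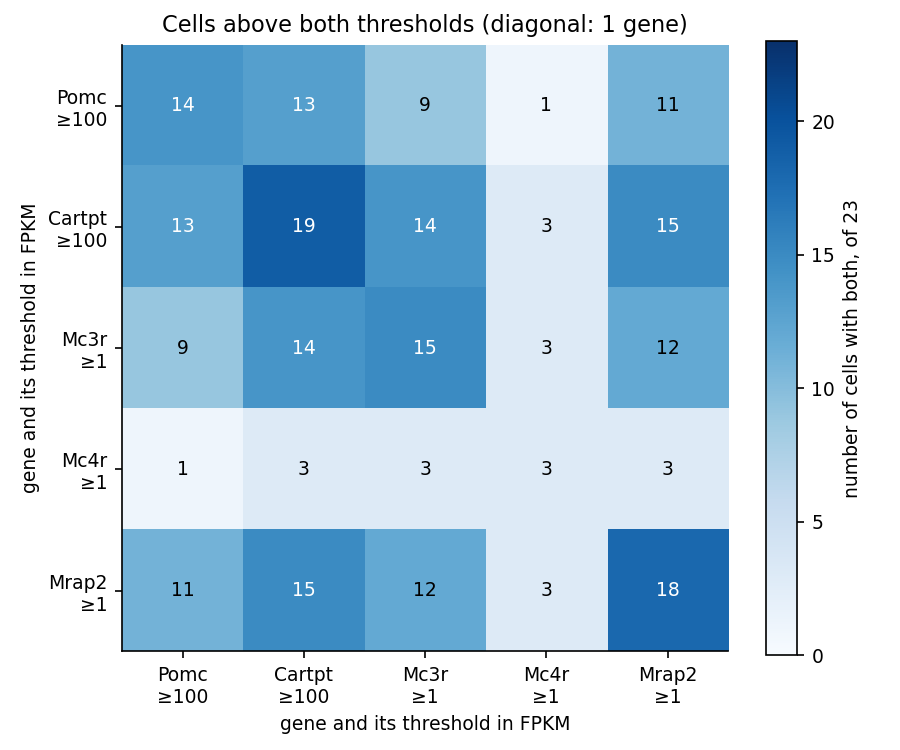
Number of cells, of 23, above the thresholds of both genes in each pair (100 FPKM for Pomc and Cartpt, 1 FPKM for the others), with the count of each single gene on the diagonal. Pomc and Mc3r share 9 cells, Pomc and Mc4r share 1, and the 3 cells with Mc4r are above the line for Mc3r, Mrap2 and Cartpt.

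The other melanocortin receptors were rare, and 2 of the 4 genes in that list reached 1 FPKM in any cell. Mc1r, the receptor of pigment cells, did so in 5 cells with 15.6 FPKM in cell 23 at most. Mc5r stood at 14.9 FPKM in cell 16, on 242 fragments, and below 1 FPKM in all others. Mc2r, the ACTH receptor, stayed at or below 0.361 FPKM, and Mrap, its accessory protein, was listed at 0 in all 23 cells. Both are named because the list has only 4 genes.

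Antagonists and modulators were present in part. Agrp, the natural antagonist, reached 1 FPKM in 9 cells, with 433 FPKM in cell 15 and 39.7 FPKM in cell 10. Cell 15 had 28.1 FPKM of Pomc, 9.14 FPKM of Mc3r and Mc4r listed at 0, beside 2660 FPKM of Npy, the peptide that AgRP neurons make. The same cell had far more of the peptide gene Sst, at 29791.5 FPKM the highest Sst value of all cells. Cell 10 had 177 FPKM of Pomc, 2539 FPKM of Npy and 0.380 FPKM of Mc3r. Of the proteins known to modify melanocortin signalling, Mgrn1 was in all 23 cells, Sdc3 in 21 and Atrn in 16, with medians of 15.3, 16.1 and 4.99 FPKM.

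The enzymes that turn pro-opiomelanocortin into peptides were widespread. At 1 FPKM, 6 of the 9 genes in this list reached at least 12 cells and 4 reached all 23. Pcsk1, the convertase of the first cuts, was in 18 cells and Pcsk2, which releases the smaller melanocortins, in 19, with medians of 8.54 and 25.1 FPKM. Cpe, which trims the cut ends, had a median of 397 FPKM, and Pam, which amidates peptides such as α-MSH, 3.77 FPKM. Pcsk1n, an inhibitor of the first convertase, was high in every cell with a median of 1052 FPKM and a lowest value of 490 FPKM in cell 3. Scg5, a chaperone of the second convertase, had a median of 169 FPKM. Prcp, an enzyme that breaks down α-MSH, reached 1 FPKM in 8 cells, 3 of 14 with 100 FPKM of Pomc and 5 of 9 others, and 20.4 FPKM in cell 18.

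Downstream of the receptors, 10 of 17 genes for G proteins, cyclic AMP signalling and arrestins reached 1 FPKM in at least 12 cells. Gnas, the stimulatory G protein through which both receptors act, had a median of 1537 FPKM and was highest in cells 12 and 13 at 4382 and 4305 FPKM. The protein kinase A genes Prkaca, Prkacb and Prkar1a were in all cells with medians of 84.3, 171 and 197 FPKM. Adcy3, the adenylyl cyclase of the primary cilium, where MC4R is known to reside, was in 17 cells with a median of 8.76 FPKM, and 6 of 12 cilium genes reached 12 cells. Of 3 opioid receptor genes 2 reached 1 FPKM in any cell. These were Oprm1, in 9 cells with 192 FPKM in cell 17, and Oprk1, in 4 with 20.05 FPKM in cell 20. Neither of 2 candidate CART receptors reached more than 5 cells. Of 4 other receptors that MRAP2 is known to bind, none reached more than 5 cells, with Prokr2 at 21.03 FPKM in cell 18 as the highest value.

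Among 91 genes of these lists, 45 were at 1 FPKM in 5 to 22 cells, so that their presence could vary between cells with and without 100 FPKM of Pomc. For 6 of the 45 the share of Pomc cells was higher by at least 35 percentage points, and for 1 it was lower, against 4.62 and 3.18% of 8336 genes in as many cells. The median difference between the shares was 3.97 points over the 45 genes and 1.59 points over the 8336. The line of 35 points was chosen after the values were seen. The line of 100 FPKM sorts cells by Pomc level and not by class of neuron. Above it, cell 17 had 108 FPKM of Pomc beside 1078 and 1814 FPKM of the arcuate peptide genes Kiss1 and Tac2. Below it, cells 8, 19, 20 and 23 had 1485, 978, 2963 and 895 FPKM of Kiss1. Prdm12, a regulator needed for Pomc expression in the developing hypothalamus, was at 1 FPKM in 9 of 14 Pomc cells and in 0 of 9 others, where its highest value was 0.388 FPKM. Of the 8336 genes 0.972% were found in 5 or more cells and in none of the 9. The 9 cells were 4, 6, 7, 12, 13, 14, 17, 21 and 22, with 46.8 FPKM in cell 7 and 29.0 FPKM in cell 4. Cells 14, 22 and 17 lay close to the line, at 1.01, 1.04 and 1.65 FPKM. The libraries of cells 14 and 22 were small, with 2.59 and 3.38 M fragments. Cells 5, 11, 16, 10 and 3 had Pomc with 0.942, 0.601, 0.465, 0 and 0.0569 FPKM of Prdm12.

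Gad2, an enzyme that makes GABA, was in 13 of 14 Pomc cells and 3 of 9 others, with medians of 39.0 and 0.543 FPKM. Gad1, which also makes GABA, fell short of the line for these differences, with 11 of 14 and 4 of 9. Slc32a1, the vesicular GABA transporter, was in too few cells for this comparison, with 1 of 14 Pomc cells and 1 of 9 others. Whether the Pomc cells release GABA was not tested. Six3, a homeodomain regulator, was in 13 of 14 and 4 of 9, with medians of 14.3 and 0.215 FPKM. Oprm1 was in 8 of 14 and 1 of 9, and the cilium gene Bbs5 in 10 of 14 and 3 of 9. The sixth gene was Creb1, the factor that binds cyclic AMP response elements, in 7 of 14 and 1 of 9, at 4.78 FPKM at most. Esr1, the estrogen receptor α gene, went the other way, with 3 of 14 Pomc cells and 7 of 9 others and at most 3.69 FPKM. Those 7 included the Kiss1-rich cells 8, 19, 20 and 23, and also cells 1, 2 and 18 with 0.840, 33.3 and 8.54 FPKM of Kiss1. Cell 17, a Pomc cell also rich in Kiss1, had 0.785 FPKM of Esr1. Creb1 and Esr1 were named after these counts were seen. Oprk1, in too few cells for this comparison, was in 0 of 14 Pomc cells and 4 of 9 others. Slc17a6, the gene of VGLUT2 itself, was at 1 FPKM in 13 of 14 and 9 of 9 cells, with medians of 26.5 and 78.7 FPKM, and the exception was cell 11 with 0.520 FPKM.

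**Figure D5:**
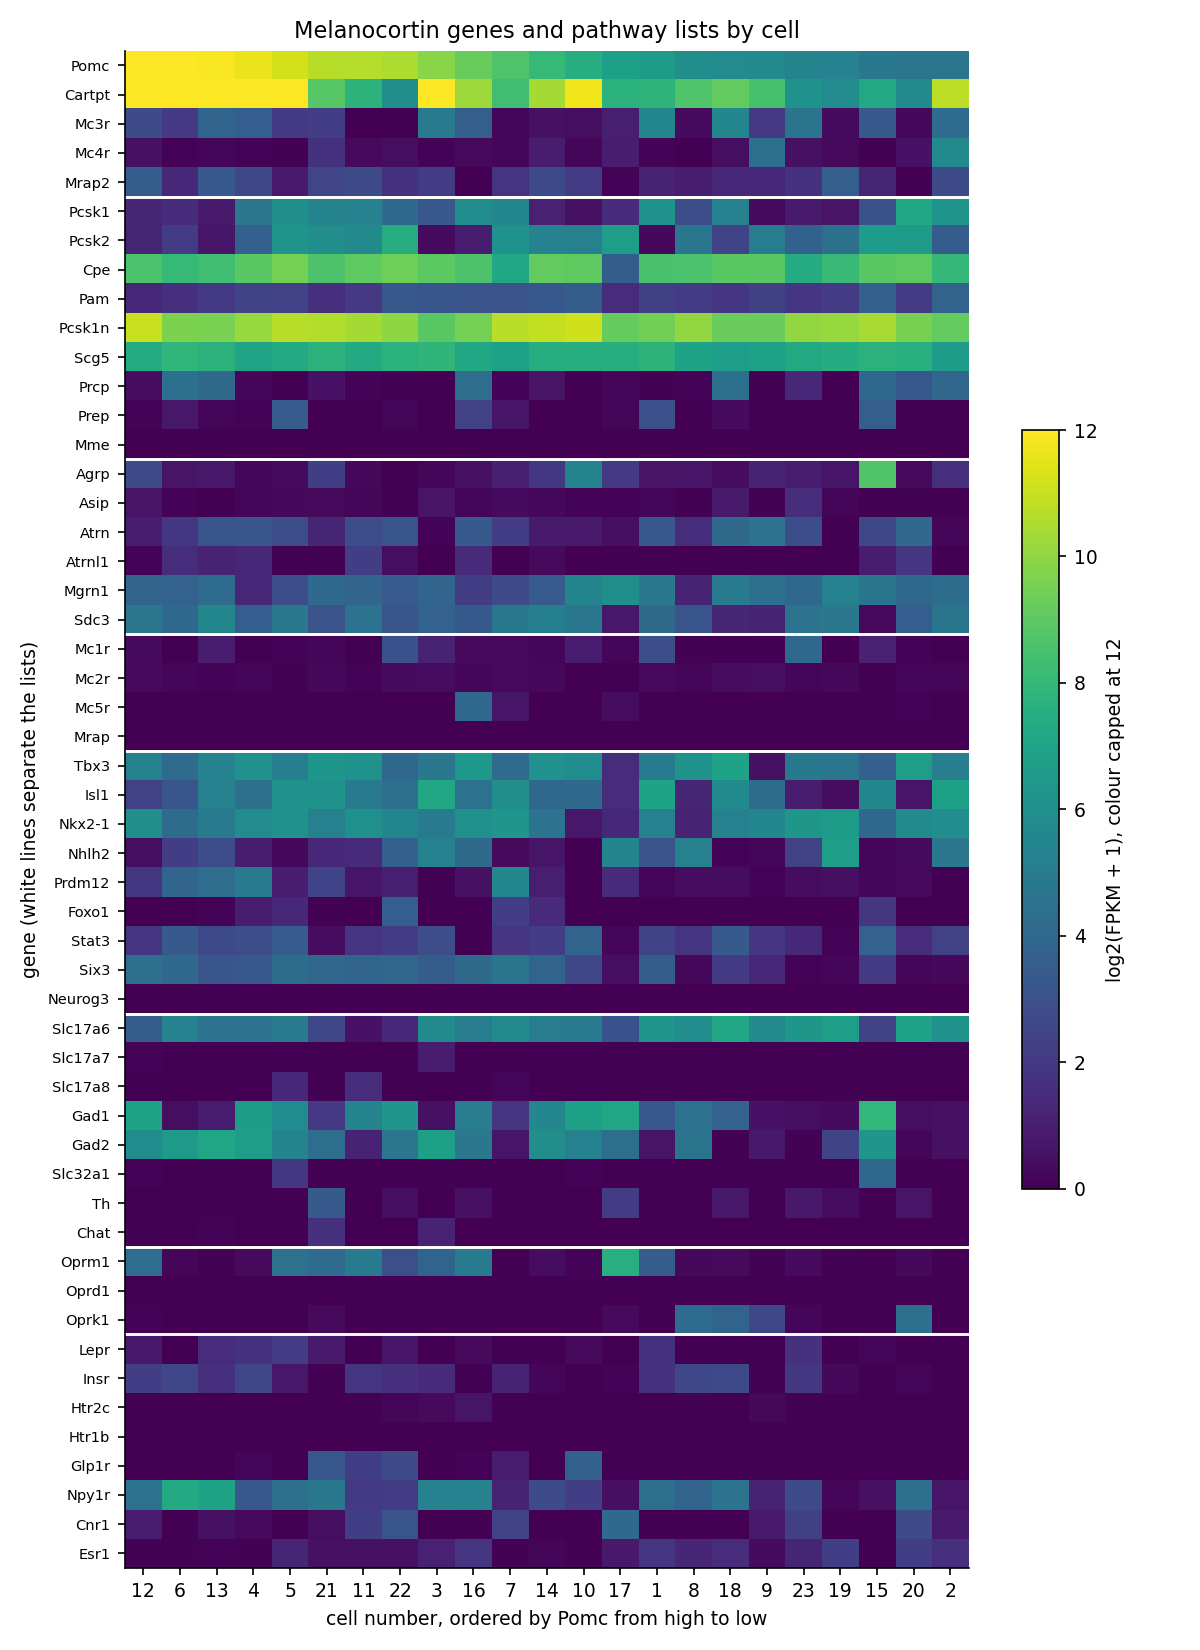
Level (log2 of FPKM + 1, colour capped at 12) of the 5 genes and 7 of the pathway lists in each cell, with cells ordered from the highest Pomc on the left. Prdm12 is under 1 FPKM in the 9 cells at the right and also in cells 3, 5, 10, 11 and 16 at the left. Six3 and Gad2 are mostly higher in the 14 at the left.

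Genes with the profile most like each member were taken by Pearson's r of log2 values less the title set's mean, over 23 cells. Being the 5 highest of 9971, they lie above the 99th percentile by selection, and that percentile is given for scale only. For Pomc these were Six3 (r 0.79), Sh3bgr (0.78), Pon2 (0.74), Ppp1r17 (0.72) and Nat6 (0.71), where the 99th percentile of all 9971 genes was 0.54. Cartpt was most like Hspb8 (0.79), Ecm1 (0.75), Aqp11 (0.75), Asb4 (0.73) and Sncg (0.72), against 0.52. For Mc3r the list was Zfp358 (0.75), 1300018J18Rik (0.75), Grik1 (0.73), Tmsb15b1 (0.72) and Dusp3 (0.72), against 0.58. In sets 1 and 2, r was 0.74 and 0.92 for Six3 with Pomc, and 0.79 and 0.70 for Zfp358 with Mc3r. With Cartpt it was 0.68 and 0.94 for Asb4 and 0.74 and 0.79 for Ecm1. It was lower in set 2 for Hspb8 (0.89 and 0.39), Aqp11 (0.81 and 0.32) and Sncg (0.79 and 0.35). These values come from the cells that picked the genes, so they are no separate check. Mrap2 was most like Fdx1l (0.72), Nr4a2 (0.71), Zfand2b (0.67), Mon2 (0.66) and Cep78 (0.65), against 0.51. Nr4a2 followed Mrap2 in set 2 alone (0.98, against -0.08 in set 1) and was at 1 FPKM in only 5 cells. Without cells 12 and 14, 3 of the 5 names stayed for Pomc, 2 for Cartpt, 3 for Mc3r and 3 for Mrap2.

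Markers of other cells differed by list. Of 8 neuronal genes 4 were at 1 FPKM in all cells, among them Uchl1 and Stmn2. Elavl4 was in 22 cells, Map2 in 20, Syt1 in 8 and Rbfox3 in 5. Of the 10 pituitary markers 8 were listed at 0 in every cell, among them Tbx19 and Pitx1, regulators of Pomc in the pituitary. The summed pituitary list reached 1.497 FPKM at most. Of the 6 tanycyte markers Rax and Crym were listed at 0 throughout, but cell 12, the cell with the most Pomc, had 258 FPKM of Vim and 165 FPKM of the astrocyte gene Gfap, and the summed tanycyte list ran from 0.187 to 258 FPKM and the astrocyte list from 0 to 166 FPKM. Of the other 5 astrocyte genes, Slc1a2 reached 8.30, 5.79, 3.89 and 1.28 FPKM in cells 4, 3, 13 and 14, all with at least 100 FPKM of Pomc, and Aqp4, Aldh1l1, Slc1a3 and Gja1 stayed below 1 FPKM in all cells. The summed red blood cell list ran from 3.45 over a median of 112 to 2395 FPKM, with the globin gene Hba-a2, whose reads cannot be told from those of its near-identical copy Hba-a1, at 1 FPKM in 22 cells. The summed list for magnocellular and paraventricular neurons ran from 0 to 8200 FPKM through Oxt and Avp. The part of these transcripts in the levels of the 5 genes was not tested. Without cells 12, 14 and 21, 11 of 20 cells had 100 FPKM of Pomc, and 7 shared it with Mc3r.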

How the data were processed

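SmartSeq2 was used to amplify the polyadenylated RNA of each of 23 hand-picked arcuate neurons, and sequencing libraries followed the NuGen Ovation Rapid protocol, per the labels' protocols. The submitters' processing notes name CASAVA 1.8, TopHat, Cufflinks and the build mm10. For the other versions, the annotation and the filters, the entry is: not given in the sources used here. Values of the single table that the authors deposited are FPKM per gene and cell, in which fragments are scaled to gene length and library size, so a few very abundant peptide transcripts lower all other values of a cell. The libraries hold no molecular identifiers, and amplified copies count as reads.

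Of 23896 rows, 12 were leftover spreadsheet summaries and were left out. Of the 23884 gene rows 286 were identical copies, 27 carried dates for names and were left out, and rows of 124 repeated symbols were summed, which gave 23373 genes. Asip was found under its older symbol, a. FPKM values were used as deposited, with a threshold of 1 FPKM (100 and 1000 FPKM for the ligands) and log2(FPKM + 1) for correlations. Intervals are exact Clopper-Pearson 95% intervals. Fragments came from the steps of low values of genes without introns of at least 800 bases, and the yardstick used genes that reached 10% of their highest value in at most 2 cells and had a locus of at least 500 bp. Both the fragment steps and the ranking by likeness were tested on simulated data. Motifs were searched on both strands. Promoters are from RefSeq and annotation from GENCODE. All 23 cells form 1 group, so no test and no p-value was computed.

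The members and lists were chosen with earlier results of these data known. Named genes are the members, genes of the pathway lists in at least 12 cells or at 10 FPKM or more in 1 cell, and the 5 genes most like each member present in at least 5 cells, among genes in at least 5 cells with a locus of at least 300 bp; exceptions are marked. No doublet caller was run on these hand-picked cells. The alternatives tried were different thresholds, each cell scaled to a sum of 1000000, each title set alone, other pseudocounts and, chosen after the data were seen, leaving out cells 12 and 14, cells 12, 14 and 21, or the 2 cells farthest from the median of Pomc, and 3 fragments as the threshold. Calculations ran in Python 3.11.15 with pandas 2.3.3, numpy 2.4.6, matplotlib 3.10.9 and scipy 1.17.1.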

Additional observations from a re-analysis of the deposited data

How the results depend on the processing

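Of 157 alternative values of 27 results, 113 stayed within the limits used (1.5 times for a count or share of cells, 1 SD over the cells on the log2 scale for a median, 0.1 for r), 44 moved and 0 reversed. The SD between cells is wide, so medians within it still differed by several times. That of Pomc was 684 FPKM with each cell rescaled to 1000000, 412 FPKM in title set 1 and 81.2 FPKM in title set 2, and that of Cartpt 1071, 1793 and 137 FPKM. Rescaling gave 6.50 FPKM for Mc3r, 0.420 FPKM for Mc4r and 4.55 FPKM for Mrap2, and Mc4r was 0.119 FPKM in title set 1 and 0.417 FPKM in title set 2. Counts depend on the threshold. At any value above 0, Mc4r was in 91.3% of cells, Pomc and Mc4r met in 14 cells, Mc3r and Mc4r in 19, Mc3r and Mrap2 in 21 and Mc4r and Mrap2 in 21. At 5 FPKM, Mrap2 was in 30.4% of cells, and the shared cells were 5 for Pomc and Mc3r, 0 for Pomc and Mc4r, 5 for Pomc and Mrap2, 9 for Cartpt and Mc3r, 1 for Mc3r and Mc4r, 4 for Mc3r and Mrap2 and 1 for Mc4r and Mrap2. At 10 FPKM, Mc3r was in 34.8% and Mrap2 in 8.70% of cells, and the same pairs shared 4, 0, 1, 7, 1, 0 and 0 cells. With each cell rescaled to 1000000, Mc4r was in 21.7% of cells, 4 of them with Pomc and 5 with Mc3r. At 5% of the highest value in the title set, Pomc was in 47.8% and Cartpt in 60.9% of cells. With at least 3 fragments, chosen after the data were seen, Mc4r was in 56.5% of cells. With a ligand threshold of 1000 FPKM, 5 cells shared Pomc and Cartpt, 7 Pomc and Mrap2 and 8 Cartpt and Mc3r. Without cells 12, 14 and 21, also chosen after the data were seen, Pomc and Mc4r shared 0 cells.

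The r of Pomc and Cartpt was 0.43 in title set 2 and 0.58 without the 2 cells farthest from the median. Of the 5 genes most like each member, a pseudocount of 0.1 kept 3 for Cartpt, 2 for Mc3r and 2 for Mrap2, no filter on level kept 3 for Cartpt and 3 for Mrap2, and values not centred kept 1 for Mrap2. Without cells 12 and 14 the numbers were 3 for Pomc, 2 for Cartpt, 3 for Mc3r and 3 for Mrap2. No paired analysis was possible because the cells form 1 group. Mc4r rests on few fragments in most cells, and the intervals of all shares are wide with 23 cells.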
